A study of Homo sapiens with 9 samples.

Results

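The 9 genes described here encode the enzymes that make serotonin and those that make, regulate and regenerate tetrahydrobiopterin, the pterin cofactor that tryptophan hydroxylation depends on. They are TPH1, TPH2, DDC, GCH1, GCHFR, PTS, SPR, QDPR and PCBD1, taken by their role in the pathway and not by a threshold on their values, and they are 9 of the 34961 genes in the deposited table. All 9 passed the filter on low counts, which left 20156 genes for testing. RNA sequencing was done on the human embryonic stem cell line WA09, known as H9, in which an EGFP reporter had been knocked in at TPH2, and every library carries this knock-in and the label of induced serotonin neuron differentiation. Day0 libraries are labelled embryonic stem cells, Day21 libraries neural progenitor cells and Day42 libraries TPH2+ serotonin neurons, and each day has 3 libraries. The labels call them biological replicates without saying that each is its own differentiation. The p-values therefore measure only how far these libraries spread, and that spread may be technical. The labels name 1 line, do not say whether the line is a single clone, and do not say whether the reporter was used to sort the Day42 cells.

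Serotonin is made from tryptophan in a pair of steps. Tryptophan hydroxylase, encoded by TPH1 in peripheral tissues and the pineal gland and by TPH2 in brainstem neurons, adds a hydroxyl group with the help of tetrahydrobiopterin, and the aromatic amino acid decarboxylase DDC then removes the carboxyl group. Tetrahydrobiopterin is built from GTP by GCH1, PTS and SPR in that order, GCH1 is held in check by its regulatory protein GCHFR, and the oxidised cofactor is restored by the dehydratase PCBD1 and the reductase QDPR.

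Total counts were between 58526466 and 69658328 per library. Genes with at least 1 count numbered 22198 to 24359 per Day0 library, 24581 to 24741 per Day21 library and 16077, 17101 and 10797 in Day42 replicates 1, 2 and 3. Day42 replicate 3 thus stood apart, and results are also given without it. Counts piled up at multiples of 4, so a count of 0 was taken to allow 12 counts per library, a mean of 0.227 CPM for Day0, 0.203 CPM for Day21 and 0.146 CPM for Day42, which covers counting error only. Levels are in CPM, counts scaled to library totals that were adjusted by TMM factors, and these factors were higher on Day42 (1.21 to 1.39) than on Day0 (0.763 to 0.942) and Day21 (0.824 to 1.04). The median log2 change of all genes tested was 0.03 for Day21 against Day0, −0.54 for Day42 against Day21 and −0.57 for Day42 against Day0, and 0.14, −0.01 and 0.01 when library totals were used without TMM factors. The labelled cell types were set against their markers. All 6 pluripotency markers lay above the limit of detection on Day0 and all 6 neural progenitor markers on Day21, and on Day42 so did 6 of 7 serotonin neuron markers and 6 of 6 neuron markers, while SLC6A4, the serotonin transporter, was at 0 in all 3 Day42 libraries. The limit was passed on other days too. It was passed by 3 pluripotency markers on Day21 and 1 on Day42, and by 4 neural progenitor markers on Day0 and 4 on Day42. Of the neuron markers, 5 passed it on Day0 and 6 on Day21, and of the serotonin neuron markers 2 and 3. These counts rest on means, and LMX1B, a serotonin neuron marker, was at 0 in 1 Day42 library. Of 6 mesenchyme markers, 3 lay above the limit on Day0 and all 6 on Day21 and Day42, with sums of 13.9 to 23.5 CPM on Day0, 584 to 637 CPM on Day21 and 124.5 to 157 CPM on Day42. COL3A1, DCN and LUM were called higher on Day42 against Day0 (edgeR adjusted p = 0.00207, 0.000648 and 0.0176). The other markers of this list, COL1A1, COL1A2 and PDGFRB, had negative log2 changes in that comparison (−1.29, −1.57 and −2.75) and were not called. The part of such cells in the levels of the 9 genes was not tested. In bulk RNA, fewer cells of a type and less RNA per cell cannot be told apart.

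DDC alone rose on Day21 against Day0. On Day42 against Day21 all 3 genes of serotonin synthesis (TPH2, TPH1 and DDC) and the first enzymes of cofactor synthesis (GCH1 and PTS) rose, while the last synthesis gene SPR, the regulator GCHFR and the recycling genes QDPR and PCBD1 did not pass the test. A gene was called when its Benjamini-Hochberg adjusted p from edgeR's quasi-likelihood test over all genes was under 0.05 and its change was at least 1 on the log2 scale. For Day21 against Day0, 1 of the 9 genes was called higher (DDC) and 0 lower, where 1.32% of all genes were called higher and 1.18% lower. At an unadjusted p under 0.05, 2 of the 9 were lower (TPH2 and PCBD1), where 8.84% of all genes were, and DESeq2 called 2 lower, where it called 7.75% of all genes lower. For Day42 against Day21, 5 were called higher (TPH2, TPH1, DDC, GCH1 and PTS) and 0 lower, where 6.52% of all genes were called higher and 19.7% lower. None was lower at an unadjusted p under 0.05 by edgeR (26.5% of all genes were) or called lower by DESeq2 (25.3%), which gave SPR no adjusted p. Limma on log2(FPKM + 1) called 1 lower, SPR, where it called 16.6% of the genes it tested lower. For Day42 against Day0, 4 were called higher (TPH2, TPH1, DDC and GCH1) and 1 lower (PCBD1), where 8.82% of all genes were called higher and 23.4% lower. With library totals in place of TMM factors, 37% of all calls for Day42 against Day21 and 39.7% of those against Day0 were higher, against 24.8% and 27.4% with TMM factors. The median log2 change over the 9 genes was −0.69 for Day21 against Day0, 1.38 for Day42 against Day21 and 0.69 for Day42 against Day0. Without Day42 replicate 3, the counts were 1 higher and 2 lower, 5 higher and 0 lower, and 4 higher and 1 lower for these comparisons in the same order. Of the 21827 genes tested in that fit, 1434 were called higher and 1460 lower, 2416 and 4859, and 3220 and 5664. The comparisons share libraries, Day21 between the first pair and Day42 between the last, so they are not independent of each other.

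**Figure D1:**
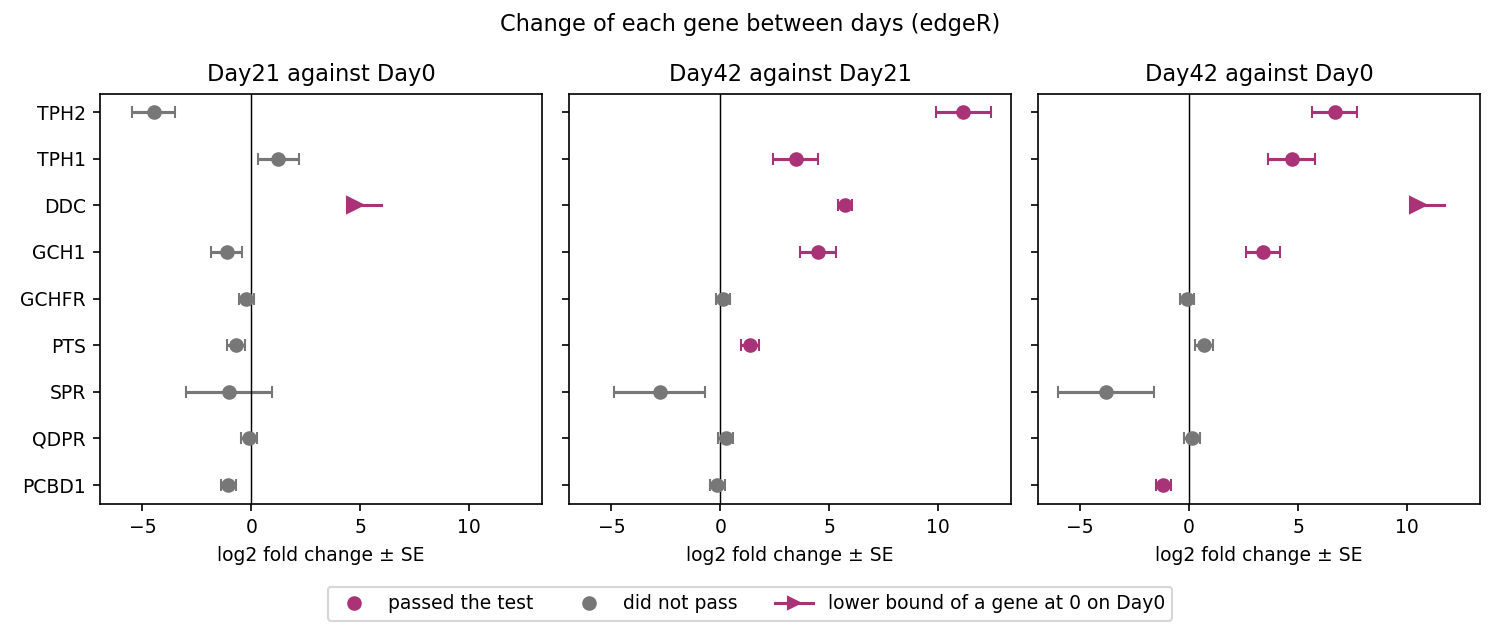
Change of each of the 9 genes between days as log2 fold change (x axis) from edgeR's quasi-likelihood fit of all 9 libraries, 1 panel per comparison. Bars are an approximate standard error, the absolute change divided by the square root of the test's F statistic. Purple genes passed the test, grey genes did not, and arrows start at the lower bound of DDC, which was at 0 in all Day0 libraries. TPH2 (11.16), DDC (5.74), GCH1 (4.50), TPH1 (3.46) and PTS (1.38) lie to the right of 0 and passed in the panel of Day42 against Day21.

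Promoter windows of 300 bases, from 250 before to 50 after the annotated start, were read from RefSeq (GRCh38.p14) for 8 of the 9 genes, the other being GCH1, with an alternative start for DDC. Those of TPH2 and DDC, called higher on Day42 in both of its comparisons, and of GCHFR and QDPR, called in none, are printed 5′ to 3′ on the strand of the gene. Not printed are those of TPH1, also called higher in both, and of SPR, also called in none. Capitals mark CG base pairs in all 4 printed windows and, in TPH2, the words AGATAA and TATAAA. TPH2 lies on the plus strand (chr12:71938595-71938894), DDC on the minus strand (chr7:50561022-50561321), GCHFR on the plus strand (chr15:40763818-40764117) and QDPR on the minus strand (chr4:17512041-17512340).
TPH2: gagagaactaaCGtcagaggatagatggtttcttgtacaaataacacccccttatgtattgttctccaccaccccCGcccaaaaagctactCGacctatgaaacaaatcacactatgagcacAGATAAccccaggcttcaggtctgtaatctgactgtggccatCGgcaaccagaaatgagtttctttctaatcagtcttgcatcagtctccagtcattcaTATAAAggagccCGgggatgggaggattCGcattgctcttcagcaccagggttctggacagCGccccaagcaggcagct
DDC: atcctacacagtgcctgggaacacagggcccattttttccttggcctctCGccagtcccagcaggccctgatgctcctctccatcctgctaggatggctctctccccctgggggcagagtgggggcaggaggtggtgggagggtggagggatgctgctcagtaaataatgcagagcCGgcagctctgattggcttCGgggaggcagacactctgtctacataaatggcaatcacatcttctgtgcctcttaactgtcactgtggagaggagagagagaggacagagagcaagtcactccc
GCHFR: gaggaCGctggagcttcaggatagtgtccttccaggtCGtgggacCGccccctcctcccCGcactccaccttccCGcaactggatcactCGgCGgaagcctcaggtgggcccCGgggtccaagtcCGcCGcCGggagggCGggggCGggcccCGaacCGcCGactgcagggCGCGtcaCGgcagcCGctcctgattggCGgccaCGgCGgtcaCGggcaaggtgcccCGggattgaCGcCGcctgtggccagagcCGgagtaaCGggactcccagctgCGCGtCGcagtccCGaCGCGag
QDPR: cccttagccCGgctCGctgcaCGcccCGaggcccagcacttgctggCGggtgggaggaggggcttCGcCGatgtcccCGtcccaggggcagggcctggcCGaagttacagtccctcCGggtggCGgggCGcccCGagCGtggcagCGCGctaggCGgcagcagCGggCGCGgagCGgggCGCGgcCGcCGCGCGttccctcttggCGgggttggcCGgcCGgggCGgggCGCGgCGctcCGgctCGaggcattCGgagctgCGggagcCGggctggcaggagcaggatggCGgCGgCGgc
The windows differed in their content of CG pairs. TPH2 held 7 CG pairs (48.7% G and C) and DDC 3 (57.3%), or 3 (44.3%) at its other annotated start, while the median of the 35116 RefSeq windows was 14 CG pairs and 58.7%. The windows of the pterin genes were richer, with 26 CG pairs in PTS (65.7%), 27 in PCBD1 (70.3%), 32 in SPR (74.0%), 35 in GCHFR (72.7%) and 42 in QDPR (79.0%). TPH1 held 21 (61.0%), at a start that lies outside the gene model of the deposited table, as does the second DDC start. All words were searched on both strands. The GATA motif, written AGATAA or AGATAG, counted along with TGATAA or TGATAG, was found in TPH2 at position −128 from the start and in PTS at −158, and in 25% of all windows. The TATA box TATAAA was found only in the TPH2 window among these 9, at −29, and in 11.5% of all windows. The GC box GGGCGG was found in TPH2, GCHFR, SPR, QDPR and PCBD1 and in 45.0% of all windows, and CCAAT in TPH1, the first DDC window, GCHFR and PTS and in 34.6%. The homeobox word TAATTA (4.84% of all windows) was found in TPH1 alone, and the ETS word CCGGAA (17.2%) and the CRE word TGACGTCA (1.85%) in none of the 9. A match is a description of letters and not evidence of binding.

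TPH2, the neuronal tryptophan hydroxylase (ENSG00000139287, chr12:71938845-72186618, plus strand, GRCh38), was low on Day0 and Day21 and high on Day42. It had 0.381, 1.47 and 1.42 CPM on Day0, 0, 0.0731 and 0.0723 CPM on Day21, and 137.5, 101 and 97.97 CPM on Day42. Every Day42 library lay far above every earlier one, and every Day21 library lay below every Day0 library. The Day21 counts of 0, 4 and 4 lie under the limit of 12 counts, and the Day0 counts of 17, 81 and 87 do not. TPH2 rose on Day42 against Day21 by 11.16 ± 1.27 on the log2 scale (edgeR adjusted p = 0.000984). Here and below, the ± of a log2 change is an approximate standard error. That fitted value rests on a count of at most 4 per Day21 library, and against the Day21 limit of detection the Day42 mean of 112 ± 22.0 CPM (SD, n = 3) stood 551-fold higher. Limma on the deposited values as log2(FPKM + 1) gave 4.24 for the same comparison. TPH2 rose on Day42 against Day0 by 6.68 ± 1.04 (edgeR adjusted p = 0.00236), and both calls held in 20 of 20 alternatives. The Day42 cells are labelled TPH2+ and the line carries a reporter at TPH2. Whether they were selected by it is not stated, so their high TPH2 level may have been fixed by selection. For Day21 against Day0 the TPH2 log2 change was −4.48 ± 0.99 (edgeR adjusted p = 0.0514), which missed the threshold but passed in 7 of 20 alternatives (adjusted p = 2.16e-06 to 0.825). The gene model shares 105 exon bases with TRHDE on the same strand, which had at most 121 counts in any library, and the sources used here do not give the strand setting behind the counts.

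TPH1, the other tryptophan hydroxylase (ENSG00000129167, chr11:18017564-18042426, minus strand), was also highest on Day42 but at a low level. It had 0.0896, 0.363 and 0.391 CPM on Day0, 0.203, 0.694 and 1.12 CPM on Day21, and 6.02, 11.9 and 4.29 CPM on Day42. The Day42 libraries lay above all others, and those of Day21 and Day0 overlapped. TPH1 rose on Day42 against Day21 by 3.46 ± 1.03 (edgeR adjusted p = 0.0383) and against Day0 by 4.70 ± 1.09 (edgeR adjusted p = 0.0115). The rise against Day0 held in 17 of 17 alternatives, and that against Day21 in 9 of 17, with adjusted p from 4.92e-05 to 0.126. The rise against Day21 was lost without any 1 Day21 library (edgeR adjusted p = 0.109, 0.126 and 0.0764 without replicates 1, 2 and 3) and without Day0 replicate 2 or 3 (0.0592 and 0.0587). It was lost as well without the filter on low counts (0.0792) and with only the compared days in the fit (0.0846). Day21 against Day0 did not pass (1.25 ± 0.95, edgeR adjusted p = 0.659).

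Levels of the hydroxylases were compared per length, on the authors' FPKM scale. The FPKM ratio of TPH2 to TPH1 was 18.55, 6.90 and 18.5 in the Day42 libraries, against 3.23, 3.32 and 3.03 on Day0. On Day21 it was 0, 0.0796 and 0.0513, with TPH2 under its limit of detection. The first Day0 ratio rests on 4 counts of TPH1, under the limit of 12. Ratios of the 3 days did not overlap. With 0.01 FPKM added to each gene, the mean log2 ratio was 3.73 ± 0.818 on Day42 and 1.34 ± 0.242 on Day0 (SD, n = 3 each), a difference of 2.38. An exact two-sided permutation test gave p = 0.1, the smallest that 3 against 3 libraries allow, and 0.12 after Benjamini-Hochberg adjustment over 6 ratio tests. The 0.01 FPKM added exceeds the lowest TPH1 value on Day0 (0.0098 FPKM) and every TPH2 value on Day21 (at most 0.0070 FPKM). The size of the log2 ratios on those days therefore depends on it. Day42 replicate 2, with the lowest ratio of that day, had the highest TPH1 level of any library, 2.49 FPKM. Markers of the cell types that use TPH1 in the body were set beside it. Of 6 enterochromaffin markers, 3 lay above the limit on Day0, 4 on Day21 and 2 on Day42, TAC1 and CHGA, and ATOH1, LMX1A, NEUROD1 and SCT were at 0 in all Day42 libraries. The summed level of this list was 18.7 to 21.7 CPM on Day0, 18.6 to 21.8 CPM on Day21 and 292.5 to 372 CPM on Day42. TAC1 alone made up 95.2%, 95.8% and 97.9% of the Day42 sums, and 65.0% to 88.1% of those on Day0. Of 5 pineal markers, 3 lay above the limit on Day0 and Day21 and 2 on Day42, when AANAT, ASMT and CRX were at 0 in all libraries. The sum of all 5 was 1.36 to 3.43 CPM on Day0, 2.63 to 2.98 CPM on Day21 and 0.342 to 4.47 CPM on Day42. The part of such cells in the TPH1 level was not tested.

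DDC, the decarboxylase of serotonin and dopamine synthesis (ENSG00000132437, chr7:50458436-50564334, minus strand), was the only gene of the 9 that was called in every comparison. It was at 0 in all 3 Day0 libraries, at 5.67, 6.36 and 6.62 CPM on Day21, and at 407, 272 and 317 CPM on Day42. The days did not overlap, and the spread among Day21 libraries was narrow (6.21 ± 0.486 CPM, SD, n = 3). DDC rose on Day21 at least 27.3-fold above Day0 (edgeR adjusted p = 0.000431), on Day42 by 5.74 ± 0.32 on the log2 scale against Day21 (edgeR adjusted p = 0.00029) and at least 1461-fold above Day0 (edgeR adjusted p = 3.82e-05). All 3 calls held in 20 of 20 alternatives. On Day21 DDC was thus detected in every library while TPH2 was under its limit, and both were high in every Day42 library. DDC also serves catecholamine neurons, so their markers are given beside it. Of 5 noradrenaline neuron markers, 0 lay above the limit on Day0, 2 on Day21 and 0 on Day42, with sums of 0.0726 to 0.440, 2.11 to 3.96 and 0 CPM, and all 5 were at 0 in every Day42 library. Of 5 dopamine neuron markers, 2 lay above the limit on each day, with sums of 0.363 to 1.34 CPM on Day0, 0.380 to 1.83 CPM on Day21 and 0.0475 to 27.5 CPM on Day42, and SLC6A3 and PITX3 were at 0 in all Day42 libraries. The gene shares 114 exon bases with DDC-AS1 on the other strand, which had at most 6 counts in any library.

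**Figure D2:**
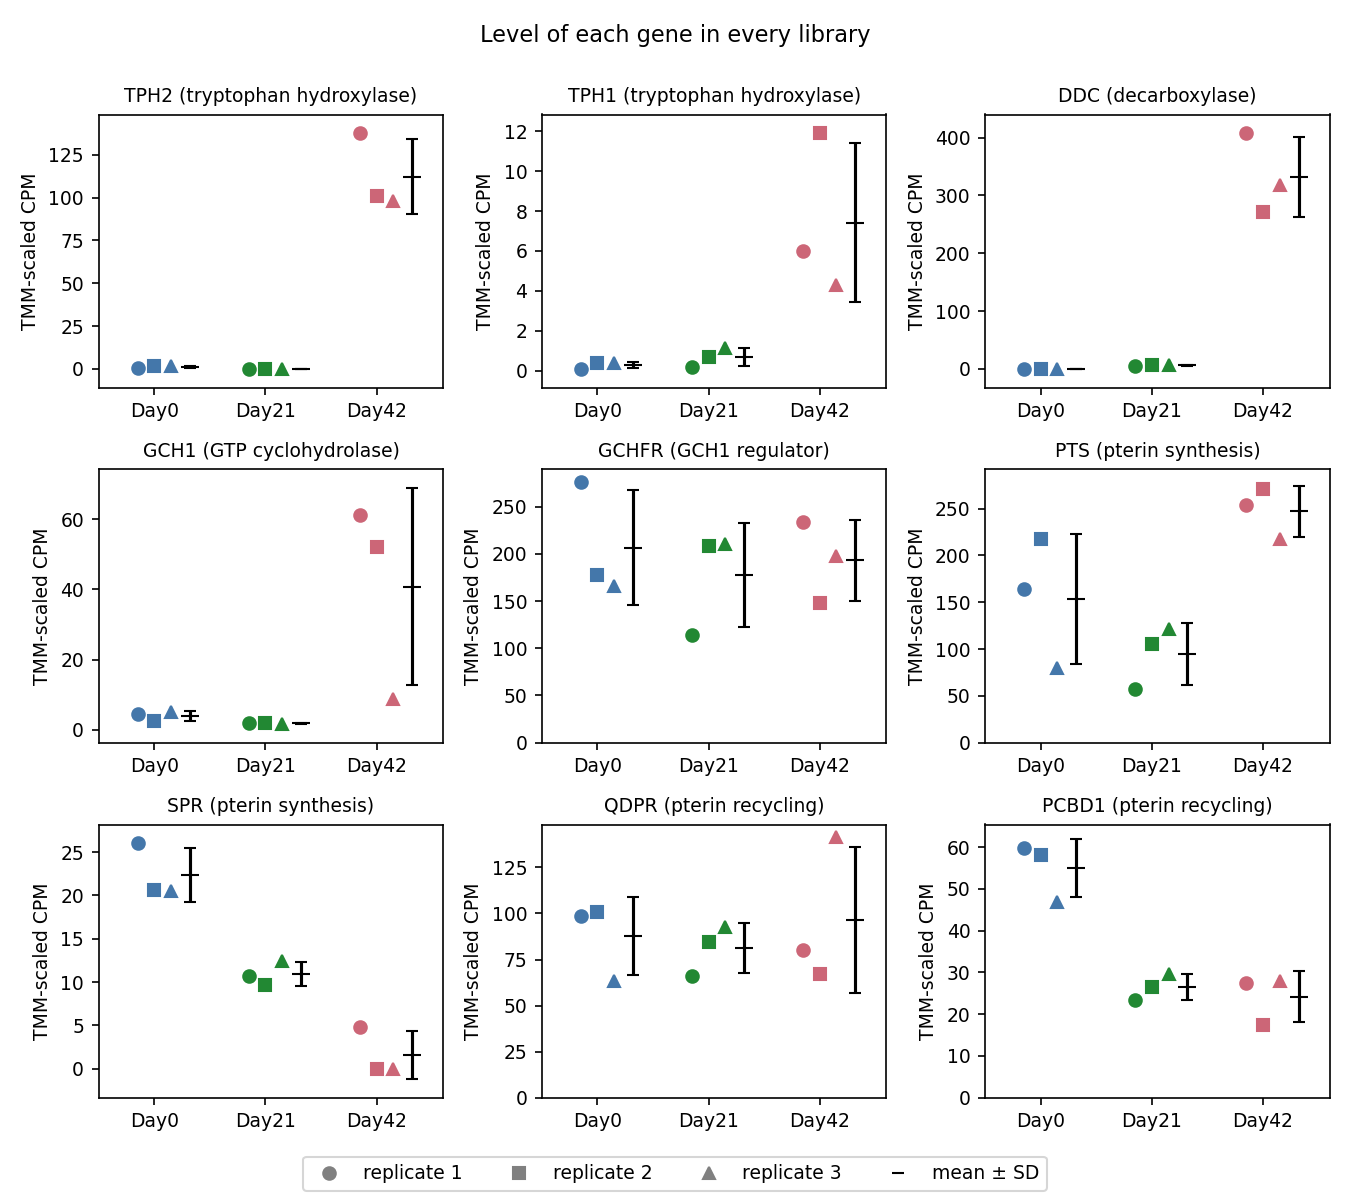
TMM-scaled CPM (y axis, linear) of the 9 genes in each library by day of differentiation, with 1 symbol per replicate number and the mean ± SD of the 3 libraries of a day beside them. TPH2, TPH1, DDC, GCH1 and PTS have all 3 Day42 libraries above every other library, SPR has 2 Day42 libraries at 0, and GCHFR and QDPR overlap on all days.

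GCH1, the GTP cyclohydrolase that starts tetrahydrobiopterin synthesis (ENSG00000131979, chr14:54842008-54902826, minus strand), was higher on Day42 with a wide spread. It had 4.37, 2.34 and 5.07 CPM on Day0, 1.901, 1.83 and 1.66 CPM on Day21, and 61.3, 52.1 and 8.78 CPM on Day42. All Day42 libraries lay above the others, though replicate 3 was well under replicates 1 and 2, and all Day21 libraries lay below Day0. GCH1 rose on Day42 against Day21 by 4.50 ± 0.82 (edgeR adjusted p = 0.00519), a call that held in 20 of 20 alternatives, with 3.20 by limma on log2(FPKM + 1). It rose against Day0 by 3.37 ± 0.78 (edgeR adjusted p = 0.0115), and without Day42 replicate 3 these changes were 4.99 and 3.85 (edgeR adjusted p = 0.000208 and 0.000305, the ranges over alternatives being 2.18e-09 to 0.0427 and 9.79e-06 to 0.0606). Day21 against Day0 did not reach the threshold (−1.13 ± 0.72, edgeR adjusted p = 0.546). Among other monoamine genes, picked after their values were seen, some were also lowest in Day42 replicate 3. SLC18A2, the vesicular monoamine transporter, had 97.3, 111 and 0.771 CPM in Day42 replicates 1, 2 and 3, and TH, the tyrosine hydroxylase of dopamine synthesis, had 23.3, 27.4 and 0 CPM. In TPH2, DDC and FEV, the transcription factor that marks serotonin neurons, replicate 3 lay close to or above replicate 2, with FEV at 579, 547 and 558 CPM in replicates 1, 2 and 3. The part of these genes, or of the low number of detected genes, in the GCH1 level of replicate 3 was not tested.

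GCHFR, the protein that binds GCH1 and mediates its inhibition by tetrahydrobiopterin (ENSG00000137880, chr15:40764068-40767708, plus strand), was abundant on every day. It had 276, 178 and 166 CPM on Day0, 114, 208 and 210 CPM on Day21, and 234, 148 and 198 CPM on Day42, and the days overlapped. No comparison passed, with −0.22 ± 0.33 for Day21 against Day0, 0.12 ± 0.33 for Day42 against Day21 and −0.10 ± 0.33 for Day42 against Day0 (edgeR adjusted p = 0.916, 0.854 and 0.87). The sign for Day42 against Day0 depended on the scaling, being 0.55 with library totals and 0.62 by limma on log2(FPKM + 0.1). Relative to the median of all genes it was 0.47 with TMM and 0.54 without. GCHFR shares 1151 exon bases with DNAJC17 on the other strand, a gene with up to 5913 counts per library, so its counts are uncertain. The FPKM ratio of GCH1 to GCHFR was 0.133, 0.178 and 0.0225 in the Day42 libraries and 0.00835, 0.00438 and 0.00394 in the Day21 libraries. It was 0.00793, 0.00658 and 0.0153 on Day0, where it overlapped Day21 but not Day42. The mean log2 ratio was higher on Day42 by 3.92 than on Day21 and by 3.11 than on Day0, or by 4.84 and 4.03 without Day42 replicate 3 (exact two-sided permutation p = 0.1 for each with all libraries, the smallest possible, adjusted 0.12). GCHFR remained the more abundant of the pair per length in every library.

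PTS, the pyruvoyl-tetrahydropterin synthase that follows GCH1 (ENSG00000150787, chr11:112226367-112236006, plus strand), was higher on Day42. It had 165, 217 and 79.4 CPM on Day0, 57.8, 106 and 121 CPM on Day21, and 254, 271 and 217.5 CPM on Day42. Day42 lay above both earlier days, where the lowest Day42 library (217.5 CPM) exceeded the highest Day0 library (217.1 CPM) only narrowly. PTS rose on Day42 against Day21 by 1.38 ± 0.41 (edgeR adjusted p = 0.0384), and 11 of 20 alternatives kept it, with adjusted p from 0.00141 to 0.0994. It was lost without Day0 replicate 1 (edgeR adjusted p = 0.0665), without Day21 replicate 1, 2 or 3 (0.0994, 0.0977 and 0.0664) and without Day42 replicate 1 or 2 (0.0603 and 0.0613). Limma's voom with sample quality weights (0.0943) and edgeR without the filter on low counts (0.0528) lost it too. Limma on the FPKM values gave larger changes of 2.04 and 2.09, with 1 and 0.1 FPKM added. Against Day0 the change of 0.69 ± 0.41 did not pass (edgeR adjusted p = 0.245), but 1.35 with library totals did (edgeR adjusted p = 0.0206), as it did in 3 of 20 alternatives in all, with adjusted p from 0.00632 to 0.531.

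SPR, the sepiapterin reductase that completes the synthesis (ENSG00000116096, chr2:72887382-72892158, plus strand), had its lowest levels on Day42. It had 26.0, 20.7 and 20.5 CPM on Day0, 10.7, 9.62 and 12.4 CPM on Day21, and 4.78, 0 and 0 CPM on Day42. The days did not overlap, each lower than the one before, and the Day42 libraries disagreed among themselves, with counts of 373, 0 and 0. No comparison passed, with −1.04 ± 1.98 for Day21 against Day0, −2.78 ± 2.09 for Day42 against Day21 and −3.81 ± 2.19 for Day42 against Day0 (edgeR adjusted p = 0.954, 0.403 and 0.233). The Day42 comparisons depended on Day42 replicate 1, the only library of that day with counts of SPR. With that library left out, SPR was called lower in both comparisons (edgeR adjusted p = 0.00118 for Day21 and 0.000643 for Day0). By the limit of 12 counts, Day42 replicates 2 and 3 then lay at least 76.9-fold under Day21 and 158-fold under Day0. These bounds cover counting error only and omit the library with 373 counts, so they do not bound the Day42 fall. Other genes also ranged widely among Day42 libraries, HPRT1 from 0 to 105.6 CPM and LUM from 0 to 102.5 CPM. The cause of such zeros was not tested. Over all alternatives with an adjusted p, those for Day42 against Day0 ran from 0.000643 to 0.406 and 4 of 20 alternatives called it, and for Day42 against Day21 they ran from 0.00118 to 0.598 with 3 calls. The Day21 change against Day0 was called in 2 of 20 alternatives, with only the compared days in the fit (−1.05, edgeR adjusted p = 0.0119) and by voom (−1.19, adjusted p = 0.0276), and its adjusted p ran from 0.0119 to 1. Carbonyl and aldo-keto reductases, which are known to carry out the last reductions in part where SPR is lacking, are described with the other cofactor genes.

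QDPR, the dihydropteridine reductase that returns the cofactor to its active form (ENSG00000151552, chr4:17460261-17512090, minus strand), did not pass in any comparison. It had 98.8, 101 and 63.1 CPM on Day0, 66.3, 84.7 and 92.7 CPM on Day21, and 79.9, 67.3 and 141.5 CPM on Day42. The days overlapped, and the highest library was Day42 replicate 3. The changes were −0.11 ± 0.36 for Day21 against Day0, 0.24 ± 0.36 for Day42 against Day21 and 0.14 ± 0.36 for Day42 against Day0 (edgeR adjusted p = 0.988, 0.702 and 0.826). Without Day42 replicate 3 the signs of the Day42 comparisons turned, to −0.13 and −0.25, and with library totals they were 0.75 and 0.76. Limma on log2(FPKM + 1) gave 0.80 and 0.77, under the fold threshold (adjusted p = 0.0429 and 0.0461, the ranges over alternatives being 0.0429 to 0.862 and 0.0461 to 0.962). PCBD1, the pterin dehydratase that precedes QDPR in recycling (ENSG00000166228, chr10:70882280-70888565, minus strand), was highest on Day0. It had 59.7, 58.1 and 47.0 CPM on Day0, 23.4, 26.4 and 29.6 CPM on Day21, and 27.4, 17.3 and 28.0 CPM on Day42. Every Day0 library lay above all later ones, and Day21 and Day42 overlapped. PCBD1 fell on Day42 against Day0 by 1.18 ± 0.35 on the log2 scale (edgeR adjusted p = 0.0336), and this call depended on the scaling. It was −0.56 with library totals (edgeR adjusted p = 0.253), −0.48 by limma on log2(FPKM + 1) and −0.61 relative to the median of all genes. The call held in 6 of 20 alternatives (the adjusted p ran over 1.78e-05 to 0.253) and was lost without any 1 library other than Day42 replicate 3 (edgeR adjusted p = 0.0583 to 0.117). Against Day0 the Day21 change of −1.05 ± 0.35 did not pass (edgeR adjusted p = 0.157) but was called in 4 of 20 alternatives, among them without Day42 replicate 3 (edgeR adjusted p = 0.0301, the range being 0.000285 to 0.431). Day42 against Day21 was −0.13 ± 0.35 (edgeR adjusted p = 0.857), or 0.38 with library totals.

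**Figure D3:**
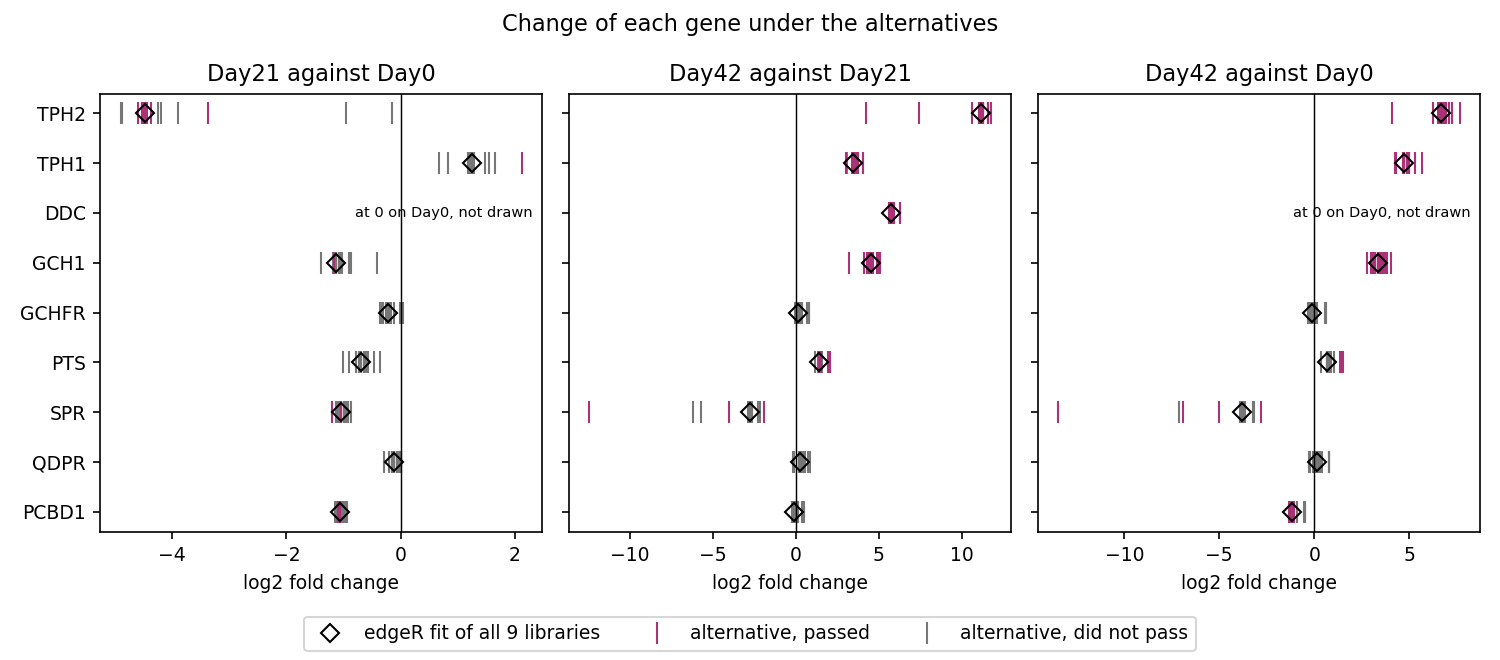
Log2 fold change (x axis) of each gene in each comparison under the 20 alternatives (17 for TPH1), as ticks, beside the edgeR fit of all 9 libraries (diamonds). Purple ticks passed the test and grey ticks did not, x axes differ between panels, and DDC is not drawn against Day0, where it was at 0. Ticks of TPH2, DDC and GCH1 for Day42 against Day21 are all purple, those of PTS and TPH1 are purple in 11 of 20 and 9 of 17, and those of GCHFR, QDPR and PCBD1 straddle 0 in that panel.

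The number of genes whose libraries did not overlap between days is given beside the share of all genes. On the CPM scale, 1 of the 9 genes had all Day21 libraries above Day0 (24.7% of all genes did) and 4 had all below (22.2%). For Day42 against Day21, 5 lay above (11.1% of all genes) and 1 below (34.7%). For Day42 against Day0, 5 lay above (11.4%), PTS in addition to those called, and 2 below (34.1%). On the FPKM scale GCHFR and QDPR joined those with all Day42 libraries above both earlier days, and PCBD1 those above Day21, so these directions rest on how libraries are scaled. That made 8 of the 9 above Day21, where 15.8% of all genes were, and 7 above Day0, where 16.1% were.

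Ranked per length on the FPKM scale, the cofactor genes led on Day0. GCHFR was highest at 95.0 ± 19.5 FPKM (SD, n = 3), then PTS at 33.3 ± 14.0, PCBD1 at 27.1 ± 1.38, QDPR at 19.7 ± 3.48, SPR at 10.6 ± 0.778 and GCH1 at 0.928 ± 0.387 FPKM, followed by TPH2, TPH1 and DDC. Libraries of PTS and PCBD1 overlapped, as did those of TPH2 and TPH1, and the other neighbours did not. On Day21 the order was GCHFR at 84.3 ± 19.3 FPKM, PTS at 21.4 ± 5.94, QDPR at 19.1 ± 1.75, PCBD1 at 13.6 ± 1.03, SPR at 5.39 ± 0.886, DDC at 1.44 ± 0.0677 and GCH1 at 0.437 ± 0.0720 FPKM, then TPH1 and TPH2, with only PTS and QDPR overlapping. On Day42 it was GCHFR at 146 ± 29.5 FPKM, DDC at 121 ± 23.8, PTS at 89.2 ± 13.7, QDPR at 35.3 ± 13.0, PCBD1 at 19.4 ± 4.13, TPH2 at 18.2 ± 3.63, GCH1 at 15.9 ± 11.1, TPH1 at 1.503 ± 0.876 and SPR at 1.22 ± 2.12 FPKM. The neighbours GCHFR and DDC, PCBD1 and TPH2, TPH2 and GCH1, and TPH1 and SPR overlapped. DDC was last on Day0 and the second on Day42, and SPR was the fifth on Day0 and last on Day42. DDC made up 0%, 1.01 ± 0.227% and 26.9 ± 1.54% of the summed FPKM of the 9 genes on Day0, Day21 and Day42, and GCHFR 50.9 ± 6.99%, 57.5 ± 3.79% and 32.5 ± 2.93%. The sum itself was 159 to 210 FPKM on Day0, 116 to 168 on Day21 and 405.5 to 518 on Day42. FPKM are not adjusted by the TMM factors used for CPM, so the size of this rise depends on scaling. For GCHFR, the largest part of the sum, the Day42 to Day0 ratio of means was 1.54 in FPKM and 0.935 in CPM.

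**Figure D4:**
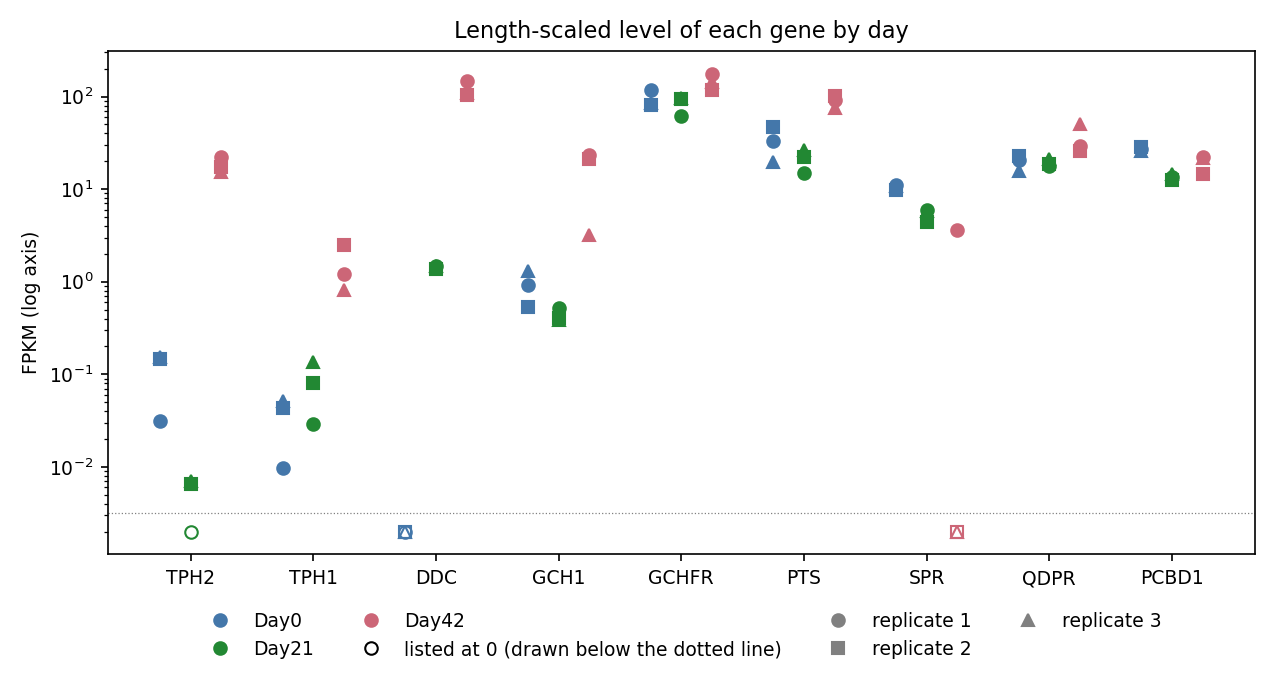
FPKM of each gene in every library (y axis, log scale), coloured by day with 1 symbol per replicate number. Open symbols below the dotted line are libraries listed at 0. On Day42 DDC (121 FPKM on average) stands beside GCHFR (146 FPKM), while on Day0 it is at 0 in all 3 libraries.

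Genes with the pattern most like a given gene were sought among 10050 genes by the root-mean-square difference of log2 CPM, centred on each gene's mean, over the 9 libraries. This likeness is a description, and the libraries it rests on share their days. The difference is not scaled to how much a gene varies, so genes that change little get small values. For TPH2 and DDC it also depends on the prior count of 2 in log2 CPM, as TPH2 on Day21 and DDC on Day0 lay under the limit. HSPA6, named below, was under it on Day21 too (0.0301 CPM on average). Nearest to TPH2 were STC1, a secreted glycoprotein, at 1.00, HSPA6, a heat shock protein, at 1.29, and TMEM200A at 1.33. Nearest to DDC were IL13RA2, an interleukin receptor, at 0.64, DCX, a microtubule protein of young neurons, at 1.32, and GUCY1A1, a guanylate cyclase subunit, at 1.34. Nearest to GCH1 were POU2F2, a POU-domain transcription factor, at 0.49, PCDH11X, a protocadherin, at 0.51, and RPS6KA6, a ribosomal S6 kinase, at 0.52. QDPR and PCBD1 had closer neighbours, MZT1, ATP6V1G1 and RWDD1 at 0.12 to 0.14 for QDPR and IDH3B, ARPC5L and CUTC at 0.17 to 0.19 for PCBD1. Among the 9 genes themselves, GCHFR and QDPR were nearest to each other at 0.34, and GCH1 was nearest to TPH1 at 1.37. TPH2 was nearest to GCH1 at 2.90, with TPH1 at 3.00 and DDC at 4.75.

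Other genes of the cofactor were taken from a list of 8. For Day21 against Day0, 1 was called higher (DNAJC12) and 1 lower (CBR1), for Day42 against Day21, 1 higher and 4 lower, and for Day42 against Day0, 1 higher and 5 lower, with a median log2 change of −0.31, −1.56 and −2.46. Over all genes, 1.32%, 6.52% and 8.82% were called higher and 1.18%, 19.7% and 23.4% lower, with medians of 0.03, −0.54 and −0.57. DNAJC12, a co-chaperone of the aromatic amino acid hydroxylases, averaged 3.68 ± 1.86 CPM at Day0, 11.9 ± 0.906 CPM at Day21 and 402 ± 56.8 CPM at Day42 (SD, n = 3 each), with 346, 401 and 459 CPM in the Day42 libraries. It rose on Day42 by 5.07 ± 0.41 against Day21 and by 6.77 ± 0.44 against Day0 (edgeR adjusted p = 0.00029 and 8.91e-05, both held in 20 of 20 alternatives). Its rise on Day21 against Day0 (1.70 ± 0.36, edgeR adjusted p = 0.0485) held in 11 of 20, with adjusted p from 0.000197 to 0.192, and was lost without any 1 library other than Day0 replicate 2 or Day42 replicate 3. CBR3, a carbonyl reductase, and AKR1C3, an aldo-keto reductase, were at 0 in all Day42 libraries, at least 137-fold and 18.2-fold lower than on Day0 (edgeR adjusted p = 0.000544 and 0.00214). AKR1B1, another aldo-keto reductase, fell on Day42 against Day21 by 1.62 ± 0.28 and stood at 203 ± 49.3 CPM on Day42 (edgeR adjusted p = 0.00406), and its fall against Day0 of 1.18 ± 0.27 was not called with library totals (−0.55, edgeR adjusted p = 0.0711, the range being 0.000461 to 0.101) or without Day42 replicate 2 (−0.94). CBR1, a carbonyl reductase, fell on Day21 against Day0 by 2.77 ± 0.46 (edgeR adjusted p = 0.02), which no longer passed without any 1 of the Day0 replicates 1 and 2 or the Day21 replicates (edgeR adjusted p = 0.0764 to 0.12). On Day42 it stood at 21.3 ± 1.91 CPM, lower than Day0 by 2.62 ± 0.46 on the log2 scale (edgeR adjusted p = 0.0034, held in 20 of 20 alternatives).

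Other enzymes that use tetrahydrobiopterin were a list of 6, of which 0 were called for Day21 against Day0 and 2 and 5 lower for Day42 against Day21 and Day0, none higher. Of all genes, 19.7% and 23.4% were called lower in those Day42 comparisons. For Day21 against Day0, 2 of the 6 were lower at an unadjusted p under 0.05, NOS1 among them, where 8.84% of all genes were. TH was the only one of the 6 with a positive log2 change on Day42. TH had 0.0672, 0 and 0.163 CPM on Day0, 0.450, 0.639 and 0 CPM on Day21 and 23.3, 27.4 and 0 CPM on Day42, so it was well above the limit in 2 of 3 Day42 libraries and at 0 in the other. It did not pass against Day21 or Day0 (edgeR adjusted p = 0.174 and 0.0813), but did without Day42 replicate 3 (edgeR adjusted p = 0.0191 and 0.00675, over ranges of 0.0191 to 0.334 and 0.00466 to 0.606). The nitric oxide synthases NOS1, NOS2 and NOS3 were at 0 on Day42, at least 3.44-fold, 5.48-fold and 16.7-fold lower than on Day0 (edgeR adjusted p = 0.00994, 0.0344 and 0.00199). For Day42 against Day21 the calls were NOS3 and AGMO, an ether lipid enzyme, at least 4.54-fold and 3.57-fold lower (edgeR adjusted p = 0.00362 and 0.00348). The NOS2 call was lost in 9 of 15 alternatives. NOS2 was also at 0 in 1 Day0 library, so its bound holds for the Day0 mean only.

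Genes linked to the supply of substrates and of the other cofactor were read from 3 further lists. Their RNA levels do not measure that supply. Over all genes, 6.52% were called higher and 19.7% lower for Day42 against Day21, and 8.82% and 23.4% for Day42 against Day0. Of 11 genes of purine and GTP synthesis, 0 were called for Day21 against Day0 and Day42 against Day21, and 1 higher and 1 lower for Day42 against Day0. These were GUK1, the guanylate kinase, with a change of 1.31 ± 0.32 and 158 ± 54.7 CPM on Day42, and ADSL, adenylosuccinate lyase, with −1.53 ± 0.29 and 158 ± 29.85 CPM (edgeR adjusted p = 0.015 and 0.00484). GUK1 missed the fold threshold without Day42 replicate 3, at 0.995, and the p threshold without Day0 replicate 1 or 3 (edgeR adjusted p = 0.057 and 0.0577, the range being 0.000345 to 0.0746), and ADSL missed the fold threshold with library totals, at −0.90. Of 5 genes of pyridoxal phosphate, the cofactor of DDC, 0 were called in any comparison by edgeR, and 2 had an unadjusted p under 0.05 for Day42 against Day0. These were PLPBP, a pyridoxal phosphate binding protein, with 107 ± 23.95 CPM on Day42 and 62.1 ± 9.42 CPM on Day0, and the pyridoxal kinase PDXK, with 84.2 ± 28.4 CPM on Day42 and 161 ± 24.2 CPM on Day0. At that level, 2559 of all 20156 genes tested were higher and 5873 lower. Of 8 amino acid carriers, SLC38A1 alone was called for Day42 against Day21, a rise of 1.75 ± 0.22 to 260 ± 47.6 CPM (edgeR adjusted p = 0.00139, held in 20 of 20 alternatives). The list was not limited to carriers of tryptophan, so this rise is not a rise in tryptophan supply. SLC7A8 was the only carrier called for Day42 against Day0, lower by 5.06 ± 1.63 (edgeR adjusted p = 0.0442). That call failed in 11 of 20 alternatives, among them leaving out any 1 library other than Day42 replicate 2 or 3, with adjusted p from 6.17e-05 to 0.115.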

How the data were processed

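RNA from 9 libraries, 3 per day, was prepared with a low-input kit, per the labels. The deposited table gives, per the file headers, raw read counts and FPKM (fragments scaled to gene length and library size) that the authors computed per gene of 34961 genes. Per the submitters' processing notes, cutadapt 1.9, FastQC and the build GRCh38 were used, while for the aligner, the counter and its strand setting these sources give no name. Genes with low counts were removed with filterByExpr, and the deposited counts of the other 20156 genes were fitted in edgeR 4.0.16 (R 4.3.3) with TMM factors, 1 mean per day over all 9 libraries, 6 residual degrees of freedom and the quasi-likelihood test, with Benjamini-Hochberg adjustment over all genes tested. The approximate standard error of a log2 change is its absolute value divided by the square root of the F statistic. CPM are counts divided by TMM-scaled totals. Ratios used log2(FPKM + 0.01) and exact permutation tests in scipy 1.17.1. The edgeR step was run on counts simulated from Day0 means, with a spread estimated without Day42 and changes planted only in genes with ample counts. That setting covers neither genes at 0 on a day nor the spread among Day42 libraries. Limma 3.58.1 and DESeq2 1.42.0 were alternatives, as were other scalings, filters, pseudocounts and leaving out each library. Gene models were read from GENCODE release 29, which holds 96.9% of the gene identifiers. Libraries totalled 58526466 to 69658328 counts. The 9 genes, the other gene lists and the rule for naming genes (in each list all called genes, or the 4 with the largest change where more were called, or the 2 with the highest mean CPM where none was) were chosen with earlier results of these data known. Some genes of these lists enter the counts but are not reported here by name.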

Additional observations from a re-analysis of the deposited data

How the results depend on the processing

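The calls of TPH2 and DDC on Day42 and of GCH1 for Day42 against Day21 held in all 20 alternatives, and those of TPH1 for Day42 against Day0 in all 17. Scaling by library totals without TMM factors was chosen after seeing the data. The number of the 9 genes called differed by more than 1.5 times as follows. For Day21 against Day0, 2 were higher with voom and sample quality weights, and 2 were lower with DESeq2, 4 with voom, 1 with a filter of 1 FPKM, 3 with only the compared days in the fit, 1 with counts divided by 4 and 1 with library totals. For Day42 against Day21, 3 were higher without a filter and 3 with the replicate block, and 1 was lower by limma on log2(FPKM + 1) and 1 on log2(FPKM + 0.1). For Day42 against Day0, 2 were lower with voom, and 0 without a filter, with only the compared days, with the replicate block or with library totals. Smaller differences were 4 higher for Day42 against Day21 with voom, with only the compared days, and by limma or with the FPKM filter, where TPH1 was not tested, and for Day42 against Day0 5 higher with library totals, which added PTS, and 3 with the block or the FPKM filter. By limma the gene lower for Day42 against Day0 was SPR. Leaving out 1 library gave 1 to 1 higher and 0 to 2 lower for Day21 against Day0, 3 to 5 and 0 to 1 for Day42 against Day21, and 4 to 4 and 0 to 1 for Day42 against Day0. The log2 ratio differences then ran from −4.13 to −3.56, 5.95 to 6.71 and 2.15 to 2.86 for TPH2 to TPH1, and from −1.14 to −0.45, 3.35 to 4.84 and 2.54 to 4.03 for GCH1 to GCHFR, in the same order of comparisons. The size of those for TPH2 to TPH1 depends on the 0.01 FPKM added, as TPH2 on Day21 was at most 0.0070 FPKM. The labels do not say whether libraries with the same replicate number are related. Their deviations from the day means correlated at −0.225 to 0.027, which with 3 libraries per day cannot exclude a shared origin. The fit with a replicate block lost the GCH1 call for Day42 against Day0 (edgeR adjusted p = 0.0606, the range being 9.79e-06 to 0.0606). It lost those of TPH1 and PTS for Day42 against Day21 as well (0.081 and 0.0874, the ranges being 4.92e-05 to 0.126 and 0.00141 to 0.0994), of PCBD1 for Day42 against Day0 (0.111, the range being 1.78e-05 to 0.253), and of CBR1 and DNAJC12 for Day21 against Day0 (0.128 and 0.146, the ranges being 1.21e-08 to 0.128 and 0.000197 to 0.192). Signs turned only for GCHFR, QDPR and PCBD1, in comparisons that were not called. For Day21 against Day0, GCHFR was 0.046 without Day0 replicate 1, and QDPR 0.009 without Day0 replicate 2 and 0.007 with library totals. For Day42 against Day21, GCHFR was −0.002 with voom and −0.057 without Day21 replicate 1, QDPR −0.146 with voom and −0.13 without Day42 replicate 3, and PCBD1 0.466 and 0.491 by limma with 1 and 0.1 FPKM added, 0.13 without Day42 replicate 2 and 0.382 with library totals. For Day42 against Day0, GCHFR was 0.615 and 0.62 by limma, 0.049 with the FPKM filter, 0.158 without Day0 replicate 1, 0.114 without Day42 replicate 2 and 0.546 with library totals, and QDPR −0.288 with voom, −0.061 without Day0 replicate 3 and −0.252 without Day42 replicate 3. Over all single libraries left out, the lowest and highest values were −0.354 and 0.046 for GCHFR and −0.297 and 0.009 for QDPR in Day21 against Day0, −0.057 and 0.346 for GCHFR, −0.13 and 0.525 for QDPR and −0.233 and 0.13 for PCBD1 in Day42 against Day21, and −0.241 and 0.158 for GCHFR and −0.252 and 0.405 for QDPR in Day42 against Day0. The cause was not tested. Over all genes, 266 were called higher and 238 lower for Day21 against Day0 by edgeR, 1389 and 1563 by DESeq2, 3734 and 3191 with voom, 2550 and 2459 with only the compared days, 1434 and 1460 without Day42 replicate 3, and 76 and 33 with the replicate block. With library totals they were 548 and 488, with the FPKM filter 462 and 419 of 10619 genes tested, and with counts divided by 4, 519 and 654 of 16391. The edgeR, DESeq2, voom, block and library-total fits tested 20156 genes, and that of only the compared days 19541. For Day42 against Day21 the calls were 1315 and 3980 by edgeR, 617 and 1803 with the block, 901 and 3205 without a filter, and 2110 and 1759 by limma on log2(FPKM + 1), where 54.5% of calls were higher. For Day42 against Day0 they were 1778 and 4721 by edgeR, 2207 and 3762 with voom, and 2561 and 3895 with library totals. Counts of TPH2 on Day21, DDC on Day0, TPH1 in Day0 replicate 1 and SPR in Day42 replicates 2 and 3 lay under the limit of 12 counts, so lower levels were not detectable at this depth.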

Other observations

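Other routes that use tryptophan or serotonin were read from lists of their own. Of 8 tested genes of kynurenine synthesis and breakdown, 1 was called lower for Day21 against Day0, 2 for Day42 against Day21 and 3 for Day42 against Day0, and 0 were called higher. Of all genes, 1.18%, 19.7% and 23.4% were called lower in these comparisons. IDO1, which opens the indole ring of tryptophan, had counts of 4, 0 and 0 on Day21 and 0 in all Day42 libraries, against 45.0 ± 5.19 CPM on Day0 (SD, n = 3). The Day42 level was lower than that of Day0 by a factor of at least 309 (edgeR adjusted p = 0.00249, held in 20 of 20 alternatives), and its call for Day21 against Day0 held in 14 of 20 (edgeR adjusted p = 0.0253, the range being 4.46e-24 to 0.149). TDO2 was not analysed here. QPRT, which makes nicotinate mononucleotide at the end of that route, had 4.05, 2.64 and 0 CPM on Day42, against 143, 104 and 85.1 CPM on Day21. It fell on Day42 by 5.63 ± 1.53 on the log2 scale (edgeR adjusted p = 0.0274), and 13 of 20 alternatives kept the call (adjusted p = 0.000169 to 0.09). HAAO, a dioxygenase of the same route, was at 0 in all Day42 libraries, at least 28.0-fold lower than on Day0 (edgeR adjusted p = 0.0133).

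AANAT, which acetylates serotonin on the way to melatonin, was at 0 in all Day42 libraries, against 0.566, 0.749 and 0.253 CPM on Day21, at least 3.58-fold lower (edgeR adjusted p = 0.0305, kept by 7 of 16 alternatives, whose adjusted p ran over 0.00057 to 0.222). Of 4 tested decarboxylases that share the cofactor of DDC, GAD2, a glutamate decarboxylase, was the only one called. It was at 0 on Day42, at least 2.19-fold lower than the Day0 mean of 0.320 ± 0.348 CPM (SD, n = 3), but 1 Day0 library was at 0 too. The call (edgeR adjusted p = 0.0362) was kept by 4 of 15 alternatives, whose adjusted p ran over 0.00314 to 0.31. Of all genes, 23.4% were called lower for Day42 against Day0.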
